A study of Homo sapiens with 16 samples.

Results

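EED was knocked down with a short hairpin RNA in HCC70, an established human breast cancer line of the basal-like type, and gene expression was set against HCC70 cells that carried a scrambled hairpin. The comparison uses 4 of the 16 arrays of the series, 2 labelled shEED and 2 of scrambled hairpin set b, which were taken by their labels. A further pair of scrambled hairpin arrays (set a) and a pair with the empty vector plKO Puro, all in HCC70, served as checks. This gave 6 HCC70 control arrays in all. An HCC70 pair with an EZH2 hairpin (shEZH2) is compared with shEED further on. The other arrays were an HCC70 pair labelled fip EZH2 and MDA-MB-468 pairs with a scrambled or an EZH2 hairpin. All 16 arrays entered the choice of clusters tested and the pooled spread behind each standard error and p-value. Every line had been infected with virus in 6 µg/ml polybrene and placed under 1 µg/ml puromycin 48 h later, and cells were seeded 24 h before RNA was taken. All groups are thus stably infected, puromycin-resistant populations. The labels give neither the sequence nor the number of EED hairpins, they do not say how long after infection RNA was taken, and nothing says that the 2 arrays of a group came from separate cultures. The p-values therefore measure only the spread between arrays of the same group, which may be technical. The series states that each treatment had its own control without naming it. Set b was taken for EED because its sample codes stand next to those of shEED.

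EED is a core subunit of Polycomb repressive complex 2 (PRC2). It binds trimethylated lysine 27 of histone H3, the mark that the complex itself writes, and stimulates the catalytic subunit, EZH2 or its paralog EZH1. SUZ12 holds the complex together, RBBP4 and RBBP7 contact histones, and JARID2, AEBP2, MTF2, PHF1, PHF19 and LCOR are accessory subunits. Genes that carry the mark are kept silent, among them regulators of lineage and development. The title of the series asks how EZH2 bears on the mixed lineage identity of basal-like breast cancer cells.

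Signals were log2 RMA values per transcript cluster, the set of probes that stands for a transcript. Array medians lay between 5.37 and 5.53, and duplicates of a group correlated at r = 0.994 to 0.997. Testing was limited to the 16175 clusters with a signal of log2 6 or more on 2 or more of the 16 arrays. A mean below log2 6 was not shown to lie above background, so a change that involves such a mean may be understated. Changes are differences of log2 means with their standard error (n = 2 arrays per group), and calls were made with limma where the Benjamini-Hochberg adjusted p fell below 0.05. The words rose and fell are used of called clusters, and a change is said to hold when it was called in the same direction against set b and against set a. Both contrasts use the same shEED arrays. The epithelial and basal markers KRT5 (12.53 to 13.14 over the 8 arrays of shEED and the controls), KRT8, KRT18 and CDH1 were bright in these groups. Of 21 markers of blood, vascular and stromal cells, 19 were below log2 6 on both arrays of each of these 4 groups. They included PTPRC, PECAM1, LUM and DCN. The exceptions were the macrophage marker CD68, at 8.57 to 9.55 over the 8 arrays, and DES, at 5.93 to 6.47. The summed log2 level of the 21 ran from 90.4 to 90.7 in shEED and from 91.5 to 92.6 in the controls.

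EED transcript was lower in the knockdown, 1.77-fold against set b and 2.31-fold against set a. EED (cluster 7942914) read 7.54 and 7.49 on the shEED arrays, 8.35 and 8.31 in set b, 8.77 and 8.67 in set a and 8.22 and 8.44 with the empty vector. Both knockdown arrays lay below all 6 control arrays, as in 11.2% of all tested clusters. The change from set b was -0.82 ± 0.11, 1.77-fold lower (limma, adjusted p = 0.000347), and it was -1.21 against set a and -0.82 against the empty vector. EZH2 read 9.86 and 9.81 after EED knockdown against 10.08 and 10.06 in set b, a difference of -0.24 ± 0.07 (limma, adjusted p = 0.0456). That call was lost against set a (-0.17, adjusted p = 0.0785), against the empty vector (-0.11), after centring each array on its median (adjusted p = 0.0802), with no filter on dim clusters (adjusted p = 0.0876), and without any 1 of the 4 arrays, when the change lay between -0.26 and -0.21. Of 12 PRC2 genes tested, EED and EZH2 were the ones called against set b, and EED alone held. Against set a 6 were higher and 4 lower, among them EZH1 (0.53 higher) and PHF1 (0.77 higher), so the picture for the other subunits depended on the control. Against set b, SUZ12 (0.01 ± 0.10), EZH1 (0.02 ± 0.08) and RBBP7 (-0.08 ± 0.08) were near 0, and the largest other differences were those of PHF1 (0.40 ± 0.14) and PHF19 (0.29 ± 0.09), neither called. LCOR differed by 0.61 from set a and by -0.01 from set b, so its direction rests on the control. Of 18 subunits of PRC1, some forms of which read the mark, 1 was called against set b, the chromobox gene CBX6, which also held.

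**Figure D1:**
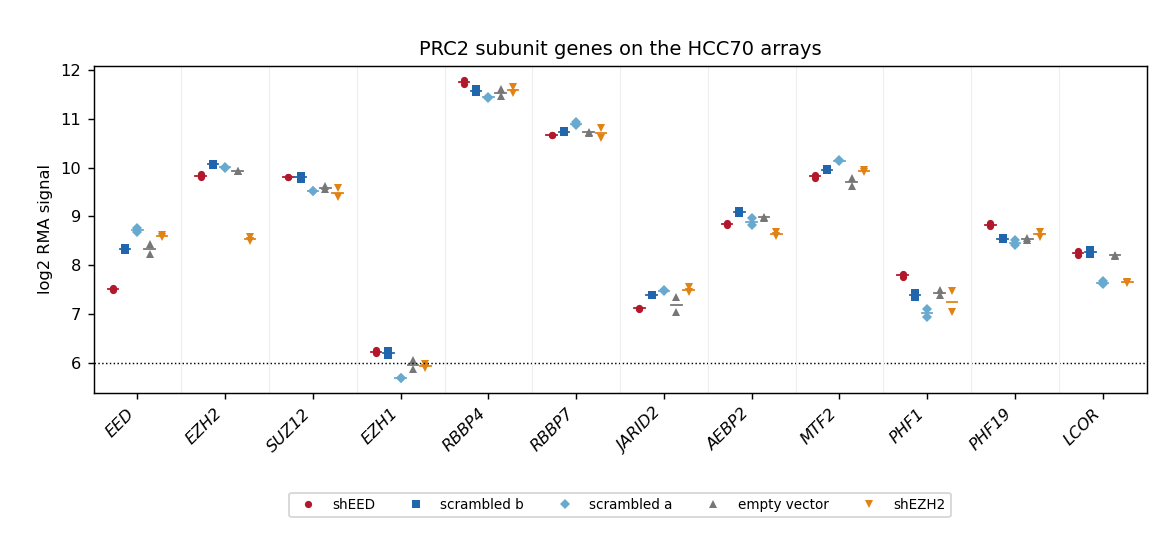
Log2 RMA signal (vertical axis) of 12 PRC2 subunit genes (horizontal axis) on each HCC70 array, with symbols for the groups shEED, scrambled b, scrambled a, empty vector and shEZH2, short bars for the mean of 2 arrays and a dotted line at log2 6. EED lies at 7.54 and 7.49 on the shEED arrays, below all 6 control arrays, and EZH2 lies lowest in the shEZH2 group (8.50 and 8.58).

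EED knockdown differed from set b in 2290 clusters. Of those tested, 1072 (6.63%) were higher and 1218 (7.53%) lower, and 43 of the rises and 163 of the falls reached 2-fold. Over the 11145 named genes, each counted once, 7.8% were higher and 9.49% lower, which is the background for list counts against set b. The shares of named genes were 25.5% higher and 15.5% lower against set a, and 10.1% and 6.1% against the empty vector. List counts against those controls are to be read beside them. The lists and their members were chosen with earlier results of these data known, so an excess over these shares is no independent support. The count rests on all 4 arrays: leaving out any 1 of them gave 1013 to 1128 calls, with 35.3% to 39.0% of them higher in place of 46.8%. Against set a, 22.8% of clusters were higher and 13.9% lower, and against the empty vector 8.62% were higher and 4.89% lower, so that 62.0% and 63.8% of calls were rises. The scrambled sets themselves differed in 3677 clusters, of which 2479 were higher in set b. Median changes over all tested clusters were 0.024, 0.033 and 0.065 against set b, set a and the empty vector.

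Of the 2290 calls against set b, 1558 held against set a, as 792 rises (4.9% of tested clusters) and 766 falls (4.74%). Another 653 were not called against set a, and 79 were called the other way, of which 73 were lower than set b and higher than set a. Among the changes that held, 32 rises and 92 falls reached 2-fold against both sets. When a call in the same direction against the empty vector was also required, 1004 were left (554 rises and 450 falls). Without 1 of the shEED or set b arrays 729 to 787 changes held.

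The largest rise that held was that of MT1M, a metallothionein gene. The 15 largest also held MT1G and MT1E of the same family, the receptor gene KIT, the Notch target gene HEY2, the cation channel gene TRPC1, PADI1, whose enzyme turns arginine into citrulline, and ANPEP, which encodes aminopeptidase N. ALG14, needed for N-linked glycosylation, read 8.68 and 8.58 after EED knockdown and between 7.25 and 7.44 on the 6 control arrays. It was 2.53-fold higher than set b (1.34 ± 0.09, limma, adjusted p = 2.65e-06), and the change was 1.24 against set a and 1.30 against the empty vector. STC2, which encodes the secreted glycoprotein stanniocalcin 2, read 8.33 and 8.28 against 6.82 to 7.28 on the controls (1.44 ± 0.10 against set b, limma, adjusted p = 4.27e-06). For both genes the knockdown arrays lay above all 6 control arrays, as in 20.3% of all tested clusters. TRPC1 (6.60 and 6.64 in shEED), PADI1, CALCA, LRRC28, the long noncoding RNA gene LCAL1 and the pseudogene NMRAL2P (7.07 and 7.17) had means below log2 6 in set b and in set a, so their levels there were not shown to exceed background. CALCA and CALCB, neighbouring genes for calcitonin-related peptides with similar sequences, rose by 1.20 and 1.29. ANPEP was 1.26 higher than set b and 1.56 higher than set a but 0.25 higher than the empty vector (limma, adjusted p = 0.119). The empty vector arrays read 10.04 and 9.98, close to the shEED arrays at 10.21 and 10.31.

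Among the changes that held, falls of 2-fold or more outnumbered such rises, whereas against set a taken alone 378 rises and 207 falls reached 2-fold. ALDH1A1, the enzyme that makes retinoic acid from retinal, read 7.11 and 7.15 on the shEED arrays, 10.02 and 10.01 in set b, 10.12 and 10.08 in set a and 9.09 and 9.22 with the empty vector. It was 7.4-fold lower than set b (-2.89 ± 0.08, limma, adjusted p = 3.99e-09). The mucosal keratin gene KRT4 read 7.46 and 7.33 against 9.90 to 10.47 on the 6 controls, 6.71-fold lower than set b (-2.75 ± 0.09, limma, adjusted p = 4.63e-09). VGLL1, a cofactor of TEAD transcription factors, read 5.86 and 6.22 against 8.56 to 9.09, 8.26-fold lower than set b (-3.05 ± 0.13, limma, adjusted p = 7.1e-08). For all 3 genes the knockdown arrays lay below all 6 control arrays, as in 11.2% of all tested clusters. The largest rises and falls were picked by their changes against sets b and a, so separation from those arrays is no added evidence. The matrix protease gene MMP7 fell by 2.17, the O-glycosylation enzyme gene GALNT12 by 2.30, the phosphate transporter gene SLC34A2 by 2.18, the choline transporter-like gene SLC44A4 by 2.14 and the peptide transporter gene SLC15A2 by 2.20. GALNT12, SLC15A2, SEMA3E (a secreted semaphorin), LPXN (a focal adhesion adaptor), TMEM156, CD180 (a Toll-like receptor relative), GPC4 (a glypican) and CRYAB (a small heat shock protein) fell to means below log2 6. The empty vector lay between: the changes of LPXN (-1.09), MMP7 (-1.05), GPC4 (-0.85) and KLK10 (-0.96) against it were smaller than those against set b (-2.34, -2.17, -2.09 and -1.87), and all were called.

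**Figure D2:**
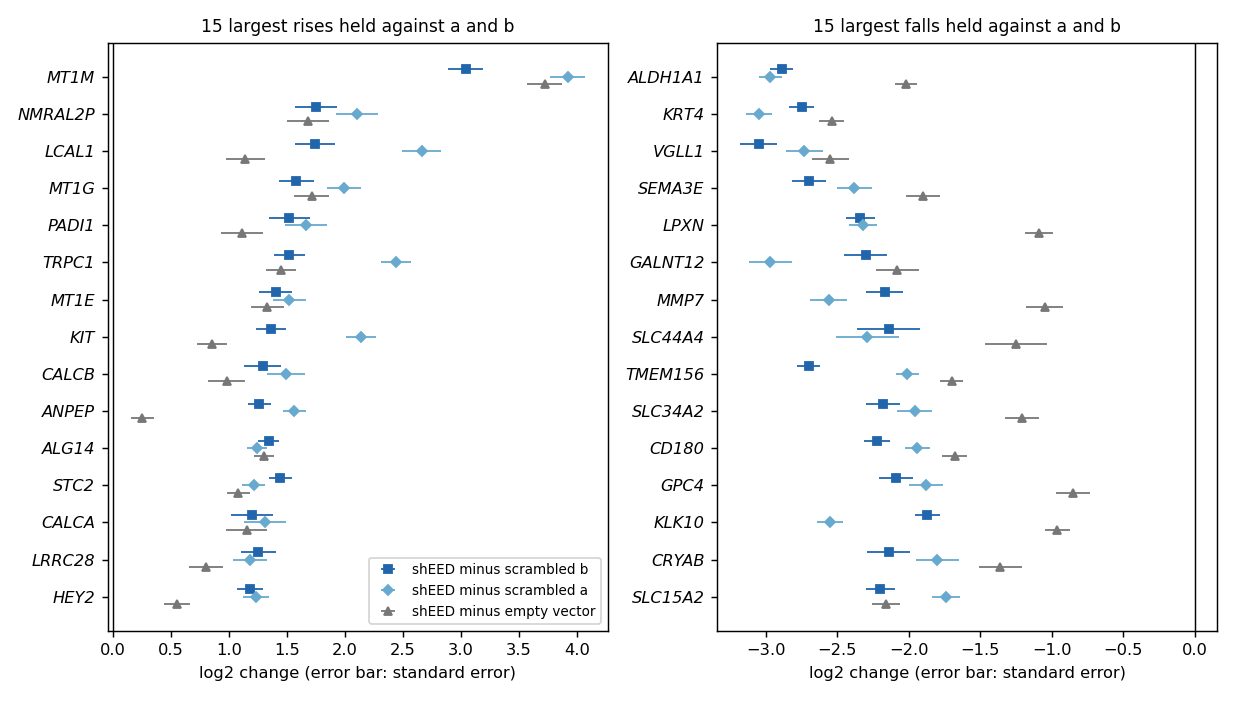
Log2 change with its standard error (horizontal axis) of the 15 largest rises (left) and 15 largest falls (right) that held, against scrambled b (squares), scrambled a (diamonds) and empty vector (triangles), with genes on the vertical axis ordered by the smaller of the changes against b and a. MT1M stands apart among the rises (3.04, 3.92 and 3.72), ANPEP is close to 0 against the empty vector (0.25), and the falls run from -3.05 to -0.85.

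**Figure D3:**
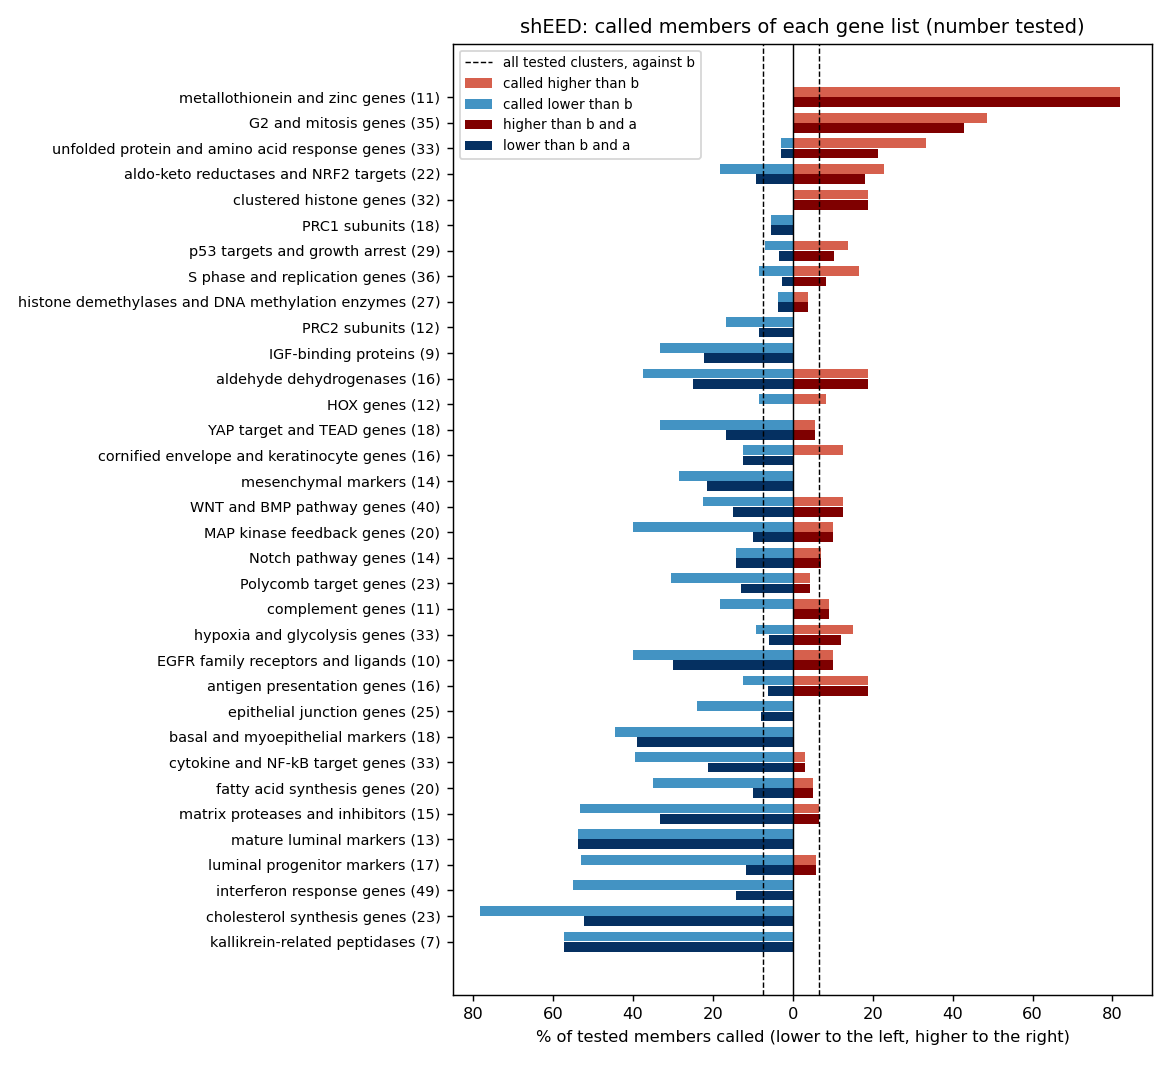
Percentage of tested members of each gene list called lower (bars to the left) or higher (bars to the right), light bars for calls against scrambled b and dark bars for calls that held; lists are on the vertical axis with the number tested, in order of their median change, and dashed lines mark the share of all tested clusters (6.63% higher, 7.53% lower). Metallothionein and mitosis genes lie mostly to the right, cholesterol synthesis, kallikrein and luminal genes to the left, and the interferon list has a long light bar and a short dark one.

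Metallothioneins are small cysteine-rich proteins that bind zinc, copper and cadmium; their genes are switched on by the zinc-sensing factor MTF1 through short metal response elements. Of 11 metallothionein and zinc genes tested, 9 rose against set b, 0 fell, and all 9 held; 6 or 7 were called without any 1 of the 4 arrays. The median change was 0.52 against set b, 0.89 against set a and 0.68 against the empty vector. MT1M read 10.29 and 10.17 on the shEED arrays, 7.02 and 7.35 in set b, 6.40 and 6.21 in set a and 6.31 and 6.71 with the empty vector. It was 8.25-fold higher than set b (3.04 ± 0.15, limma, adjusted p = 2.31e-07). The knockdown arrays stood far above all others. MT1G (11.52 and 11.17 against 9.66 and 9.86 in set b) rose 3.0-fold, MT1E (8.74 and 8.72 against 7.19 and 7.49) 2.63-fold and MT1F (11.70 and 11.62 against 10.65 and 10.78) 1.93-fold. MT2A, the brightest member, rose by 0.44 ± 0.08. MT1X rose by 0.46 ± 0.14 (limma, adjusted p = 0.0455), a call lost against the empty vector (0.25, adjusted p = 0.236) and without any 1 of the 4 arrays (0.37 to 0.54). The zinc exporter gene SLC30A1 read 10.96 and 10.84 in shEED, 10.09 and 10.14 in set b, 9.23 and 9.33 with the empty vector and 8.32 and 8.31 in set a, so its rise was 0.79, 1.62 or 2.58 by control. The zinc importer genes SLC39A10 (0.52) and SLC39A6 (0.38) also rose; the first call was lost without set b replicate 1 or 2 or shEED replicate 2 (0.46 to 0.56), and the second without set b replicate 2 or shEED replicate 1 (0.36 and 0.34). MTF1 differed from set b by 0.01 ± 0.12, and MT1B by 0.28 ± 0.11, neither called. Both shEED arrays lay above all 6 controls for 9 of the 11 genes, against 20.3% of all tested clusters. In shEZH2, 5 of the 11 were also called higher than set a. Metallothionein genes are close copies, and how far their probes share sequence was not tested.

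The stretches before the starts of MT1X and MT2A are shown for their metal response elements. Capitals mark the core TGCACNC or TGCGCNC on either strand, and the sequences are from RefSeq on GRCh38.p14, 170 bases ending at the base before the annotated start. MT1X lies at chr16:56682300-56682469 and MT2A at chr16:56608414-56608583, both on the plus strand.
MT1X: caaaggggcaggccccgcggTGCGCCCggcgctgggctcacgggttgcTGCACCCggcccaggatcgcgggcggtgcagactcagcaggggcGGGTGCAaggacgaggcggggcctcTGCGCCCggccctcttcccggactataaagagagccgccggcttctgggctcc
MT2A: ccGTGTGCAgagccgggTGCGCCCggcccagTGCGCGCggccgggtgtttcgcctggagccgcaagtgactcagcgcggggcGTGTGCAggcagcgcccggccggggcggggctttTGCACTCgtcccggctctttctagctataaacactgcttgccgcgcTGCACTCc
Of the 7 tested members with an entry in the promoter table, 4 held TGCACNC and 3 held TGCGCNC between 250 bases before and 50 after the start, against 11.9% and 20% of 27305 promoters. A match is a run of letters, not a measured site.

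Most cholesterol synthesis genes fell against set b. The pathway runs from acetyl-CoA through HMG-CoA, mevalonate, squalene and lanosterol to cholesterol, and its genes are driven by the factor SREBF2 when sterols are scarce. Of 23 genes tested, 18 were lower than set b and 0 higher, with a median change of -0.68; 15 or 16 were called without any 1 array. Against the empty vector 18 were also lower (median -0.68). Against set a 12 were lower and 1 higher (median -0.37), and the 12 that held, which were also called against the empty vector, were ACAT2, HMGCS1, MVK, MVD, SQLE, CYP51A1, TM7SF2, MSMO1, NSDHL, SC5D, DHCR7 and INSIG1. HMGCS1, which makes HMG-CoA, read 8.96 and 9.08 on the shEED arrays, 10.61 and 10.60 in set b, 10.71 and 10.42 with the empty vector and 9.70 and 9.73 in set a. It was 3.0-fold lower than set b (-1.58 ± 0.17, limma, adjusted p = 7.56e-05) and fell by 0.70 against set a. MSMO1, a sterol oxidase, read 9.53 and 9.76 against 10.96 to 11.32 on the 6 controls, and fell by 1.52 and 1.32 against sets b and a. Other large falls against set b that held were those of the sterol reductase TM7SF2 (-1.33 ± 0.10), the mevalonate decarboxylase MVD (-1.23 ± 0.13), the sterol sensor partner INSIG1 (-1.19 ± 0.11), DHCR7, which makes cholesterol from its precursor (-1.09 ± 0.09), and the squalene oxidase SQLE (-1.08 ± 0.10). In each, both shEED arrays lay below all 6 controls, as they did for 15 of the 23 genes and for 11.2% of all tested clusters. Levels in set a lay below those in set b (median difference 0.43). LSS (-1.11 against set b), STARD4 (-1.08) and IDI1 (-0.50) were accordingly not called against set a (-0.21, -0.13 and -0.03), FDPS fell by 0.30 against set b and was 0.21 higher than set a, and SREBF2 itself was not called (-0.31 ± 0.12). The calls of FDPS (-0.34 to -0.26) and IDI1 (-0.56 to -0.37) were lost without a single array, FDPS without any of the 4 and IDI1 without set b replicate 1 or 2 or shEED replicate 1.

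Of 20 fatty acid synthesis genes, 7 fell and 1 rose against set b (median -0.32). Against set a, 3 were lower and 6 higher (median 0.08), near the 15.5% and 25.5% of all named genes. The fatty acid synthase gene FASN (-0.81) and the acetate-activating ACSS2 (-0.99) held, while the desaturase gene SCD was 0.84 lower than set b and 0.07 higher than set a, and LPIN1 was 0.75 lower than set b and 1.17 higher than set a. GPAM, which starts glycerolipid synthesis, rose (0.72, and 0.91 against set a).

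The stretches before MVD (chr16:88663092-88663261, minus strand) and MSMO1 (chr4:165327499-165327668, plus strand) are shown with their CCAAT boxes in capitals on either strand, again 170 bases from RefSeq on GRCh38.p14.
MVD: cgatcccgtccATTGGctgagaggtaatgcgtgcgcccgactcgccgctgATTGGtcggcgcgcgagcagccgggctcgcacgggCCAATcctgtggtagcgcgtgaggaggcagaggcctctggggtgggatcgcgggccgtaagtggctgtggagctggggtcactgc
MSMO1: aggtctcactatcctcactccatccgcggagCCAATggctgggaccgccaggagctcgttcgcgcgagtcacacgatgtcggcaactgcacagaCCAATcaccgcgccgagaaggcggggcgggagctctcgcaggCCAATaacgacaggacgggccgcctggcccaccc
CCAAT was found in 14 of the 21 cholesterol genes with an entry, against 35.7% of all promoters. The sterol regulatory element core TCACNCCAC was found in 1 of the 21, against 1.15%.

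Some genes of G2 and mitosis rose, by small amounts. Of 35 tested, 17 were higher than set b and 0 lower, with a median change of 0.31 (0.32 against set a and 0.33 against the empty vector), and 15 held. Of these 15, 9 were also called against the empty vector, and AURKA, CCNB1 (0.19), CDK1 (0.38), HMMR, KIF2C and the spindle midzone gene PRC1 were not. Of the list, 5 to 9 were left without any 1 of the 4 arrays. Both shEED arrays lay above all 6 controls for 27 of the 35, against 20.3% of all tested clusters. AURKA, a kinase of the spindle poles, read 10.09 and 10.10 on the shEED arrays, 9.40 and 9.36 in set b, 9.33 and 9.44 in set a and 9.77 and 9.78 with the empty vector. The knockdown arrays were the highest and the empty vector lay between, so the change was 0.71 ± 0.12 against set b (limma, adjusted p = 0.00161) and 0.32 against the empty vector (adjusted p = 0.0884). PTTG1, which encodes securin, read 9.90 and 10.04 against 9.33 to 9.64 on the controls, a rise of 0.63 ± 0.09 (limma, adjusted p = 0.00064). The spindle gene NUSAP1 rose by 0.61, the cyclin gene CCNB2 by 0.45, the mitotic kinase gene CDK1 by 0.47, the kinesin genes KIF11 by 0.38 and KIF23 by 0.34 and the cyclin gene CCNB1 by 0.33. Calls of CCNB1 (0.31 to 0.35), CDK1 (0.38 to 0.55) and KIF11 (0.36 to 0.40) were lost without any of the 4 arrays, KIF23 without any but set b replicate 1 (0.27 to 0.37), CCNB2 without shEED replicate 2 (0.37) and NUSAP1 without any but shEED replicate 1 (0.44 to 0.62). The proliferation marker MKI67 (0.37 ± 0.14) and the kinase PLK1 (0.04 ± 0.07) were not called.

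Of 36 S phase genes 6 were higher and 3 lower than set b (median 0.03), which became 2 to 4 higher and 1 or 2 lower without any 1 array. Of the 36, 10 were higher than set a and 9 than the empty vector, beside 25.5% and 10.1% of all named genes. The replication gene GINS1 rose (0.50) and the helicase subunit MCM5 fell (-0.38). GINS1 was not called without set b replicate 1 or shEED replicate 2 (0.48 and 0.47), nor MCM5 without the same arrays (-0.35 and -0.34). MCM5 was also not called against the empty vector (-0.19, limma, adjusted p = 0.143). CCND1, the cyclin of G1, fell by 0.84 against set b and by 0.72 against the empty vector and was -0.17 against set a, not called. Of 32 clustered histone genes 6 rose and 0 fell against set b, and all 6 held (H1-1, H1-3, H2BC9, H2BC14, H3C7 and H2AC20); 3 to 5 were called without any 1 array.

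The stretches before CCNB2 (chr15:59104976-59105145, plus strand) and KIF11 (chr10:92592960-92593129, plus strand) are shown because promoters of mitotic genes often pair CCAAT boxes with the cell cycle genes homology region, TTTGAA. Both motifs are in capitals on either strand, in 170 bases from RefSeq on GRCh38.p14.
CCNB2: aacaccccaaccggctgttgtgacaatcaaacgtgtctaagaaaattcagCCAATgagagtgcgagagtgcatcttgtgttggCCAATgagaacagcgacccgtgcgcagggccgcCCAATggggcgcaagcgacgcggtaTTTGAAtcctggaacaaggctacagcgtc
KIF11: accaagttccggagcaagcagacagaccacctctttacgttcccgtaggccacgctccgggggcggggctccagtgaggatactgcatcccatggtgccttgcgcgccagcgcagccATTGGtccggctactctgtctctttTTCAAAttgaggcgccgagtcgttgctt
TTTGAA was found in 19 of the 29 mitosis genes with an entry, against 15.4% of all promoters, and CCAAT in 21 of the 29. Upstream of the start alone TTTGAA was found in 15 of the 29, against 13.6%.

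Some genes of the amino acid response rose, and tested chaperone genes of the unfolded protein response, such as HSPA5, HSP90B1 and CALR, did not. The factor ATF4 switches on genes for amino acid import and synthesis when amino acids are short or proteins misfold. Of 33 genes in the combined list of the unfolded protein and amino acid responses, 11 rose and 1 fell against set b (median 0.20), and 7 rises held; 5 to 7 rises were called without any 1 array. SLC7A11, the cystine importer, read 9.94 and 9.92 on the shEED arrays, 8.92 and 8.93 in set b, 8.98 and 9.04 with the empty vector and 8.04 and 7.99 in set a. It was 2.0-fold higher than set b (1.00 ± 0.10, limma, adjusted p = 5.1e-05). ATF4 rose by 0.37, the pseudokinase gene TRIB3 by 0.70, the phosphoserine aminotransferase gene PSAT1 by 0.39 and the asparagine synthetase gene ASNS by 0.29. ASNS (0.27 to 0.30) and PSAT1 (0.36 to 0.42) lost the call without any of the 4 arrays, and ATF4 without set b replicate 1 or shEED replicate 1 (0.35 and 0.34). ASNS was also not called against the empty vector (0.23, limma, adjusted p = 0.0855). HSPA5, the main chaperone of the reticulum, differed by -0.04 ± 0.08, and the chaperone partner gene SDF2L1 fell by 0.66. DDIT3 (7.72 and 7.73 in shEED, 6.55 and 6.72 in set b, 6.72 and 6.74 with the empty vector, 7.67 and 7.70 in set a) rose by 1.09 against set b and differed by 0.04 from set a. The shEED arrays lay close to set a and well above the other controls. SESN2 and DDIT4 are stress-induced inhibitors of growth signalling. SESN2 differed by 0.90 from set b and by 0.24 from set a, the latter not called, and DDIT4 was 0.98 higher than set b and 0.73 lower than set a. CHAC1 rose by 0.72 against set b (-0.38 against set a), a call lost without any array but set b replicate 1 (0.40 to 0.79). Of 22 aldo-keto reductase and NRF2 target genes, which answer oxidative stress, 5 rose and 4 fell against set b. Without any 1 array this became 2 to 4 and 1 or 2. The rises of SRXN1 (0.84), NQO1 (0.34), SLC7A11 and OSGIN1 held, and so did the falls of PGD and GSR. AKR1C1 and AKR1C2 fell against set b, but these falls did not hold. NQO1 lost its call without set b replicate 1 or shEED replicate 2 (0.32 for both).

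**Figure D4:**
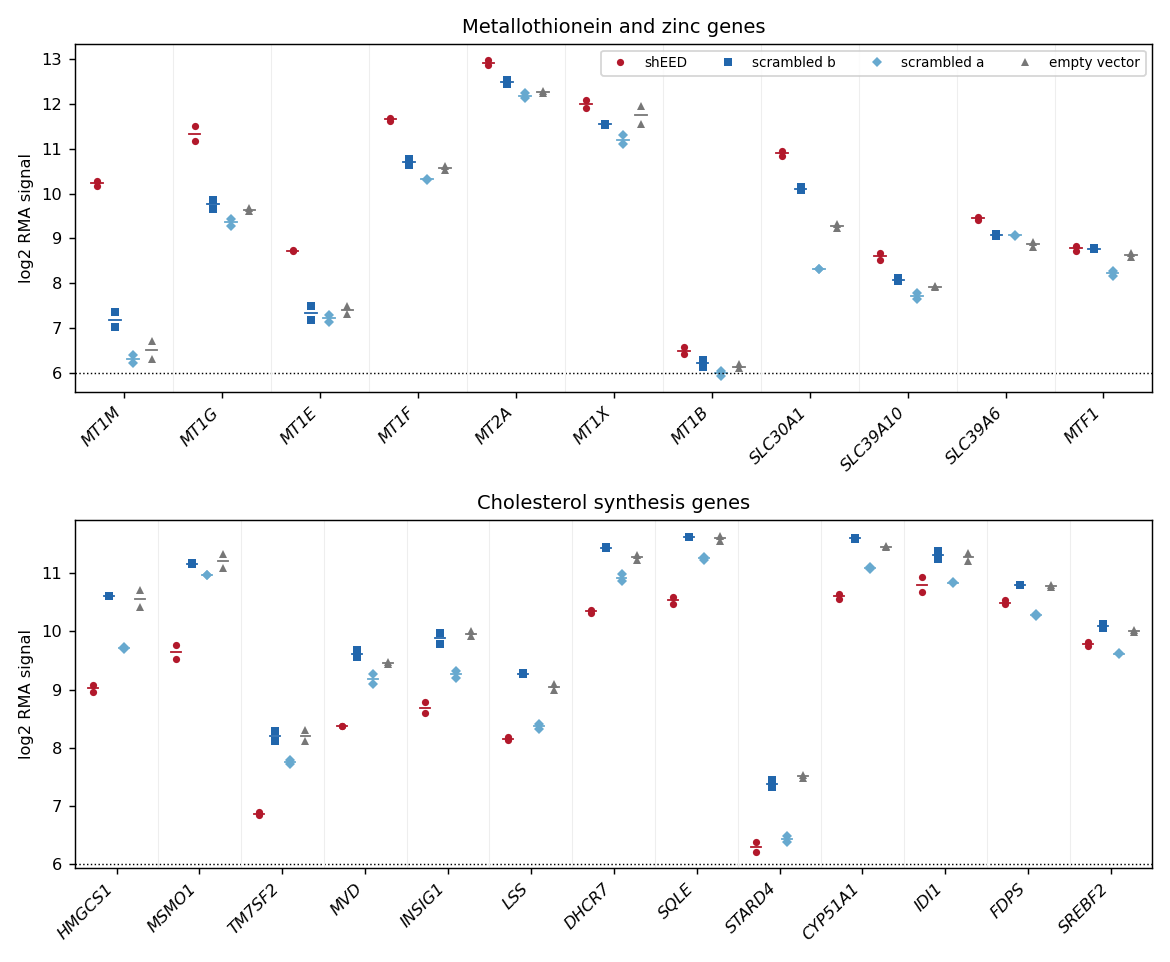
Log2 RMA signal (vertical axis) of metallothionein and zinc genes (top) and cholesterol synthesis genes (bottom) on each array of shEED, scrambled b, scrambled a and empty vector, with short bars for the mean of 2 arrays and a dotted line at log2 6. The shEED arrays are highest for metallothionein genes such as MT1M (10.29 and 10.17), though not for MT1X, where 1 empty vector array (11.95) lies between them (12.09 and 11.92), and lowest for genes such as MSMO1 (9.53 and 9.76), while scrambled a lies nearer to shEED than scrambled b does for LSS, STARD4 and IDI1.

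Some luminal and some basal markers fell, and KIT rose. Mammary epithelium holds an outer basal layer with KRT5 and KRT14, mature luminal cells with KRT8, KRT18 and GATA3, and luminal progenitors marked by KIT. Of 13 mature luminal markers tested, 7 fell and 0 rose against set b (median -0.38), and all 7 held: FOXA1, AGR2, KRT8, KRT19, ERBB3, SPDEF and CA12. Without any 1 array 4 were called. Both shEED arrays lay below all 6 controls for 11 of the 13, against 11.2% of all tested clusters. AGR2, a disulfide isomerase of secretory cells, read 8.94 and 9.24 against 10.05 to 10.52 on the controls (-1.07 ± 0.14 against set b, limma, adjusted p = 0.000351). KRT8 read 11.84 and 11.73 against 12.23 to 12.37, with no overlap, and fell by 0.53. KRT19 fell by 0.27 and the pioneer factor gene FOXA1 by 0.45, calls that were lost without any 1 of the 4 arrays (-0.29 to -0.25 and -0.46 to -0.44). Against the empty vector 5 of the 7 were also called lower, and FOXA1 was not (-0.39, limma, adjusted p = 0.0675). GATA3 (-0.32 ± 0.14) and KRT18 (-0.17 ± 0.10) were not called.

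Of 18 basal and myoepithelial markers, 8 fell and 0 rose against set b (median -0.24), and 7 held: KRT5, KRT14, CRYAB, CAV1, DSG3, SNAI2 and VSNL1; 6 were called without any 1 array. SNAI2, a factor of the basal state, read 7.45 and 7.28 on the shEED arrays, 8.89 and 8.90 in set b, 8.46 and 8.25 in set a and 8.55 and 8.76 with the empty vector. It was 2.89-fold lower than set b (-1.53 ± 0.14, limma, adjusted p = 3.18e-05). KRT14 read 8.93 and 8.80 against 9.24 to 10.19 and fell by 0.56, the desmosomal cadherin gene DSG3 by 1.12 and the caveolin gene CAV1 by 0.74. KRT5 fell by 0.28 (limma, adjusted p = 0.0267), a call lost against the empty vector (-0.17, adjusted p = 0.148) and without any 1 of the 4 arrays (-0.33 to -0.24). EGFR differed by -0.13 ± 0.12. Some kallikrein-related proteases, secreted by keratin-producing epithelia, went the same way. Their list had 7 tested members, 1 of them the serpin gene SERPINB5, which is not a kallikrein and was not called against set b. Of the 7, 4 fell and held (KLK5, KLK6, KLK8 and KLK10), KLK6 and KLK8 to means below log2 6. Medians over the 7 were -0.83, -1.18 and -0.85 against set b, set a and the empty vector. KLK5 read 9.53 and 9.57 against 10.32 to 10.90 on the 6 controls. KLK7 differed by -0.52 ± 0.16 from set b (adjusted p = 0.053) and by -1.18 and -1.03 from set a and the empty vector.

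KIT was the luminal progenitor marker that rose. It read 8.37 and 8.55 on the shEED arrays, 7.04 and 7.16 in set b, 6.26 and 6.37 in set a and 7.64 and 7.58 with the empty vector. The knockdown arrays were above all controls, as in 20.3% of all tested clusters. The rise of KIT was 1.36 ± 0.13 against set b (2.57-fold, limma, adjusted p = 3.57e-05), 2.14 against set a and 0.85 against the empty vector. Of the 17 progenitor markers, 9 fell against set b (median -0.40), but 2 of these held, KRT4 and CD14. CD14, a receptor subunit for lipopolysaccharide, fell by 1.18 and 0.89. The stem cell marker PROM1 was 0.62 lower than set b and 0.27 higher than set a, and the aldehyde dehydrogenase gene ALDH1A3 was 0.40 lower than set b and 0.56 higher than set a. The median difference between set b and set a over these 17 genes was 0.69, so the direction of the list depends on the control. Of 14 mesenchymal markers 4 fell against set b (2 or 3 without any 1 array), and SNAI2, TGFBI and LOX held; against set a 6 were lower and 3 higher. VIM was 0.57 lower than set b and 0.84 higher than set a, and FN1 was 0.40 higher than set b, not called, and 2.29 higher than set a.

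The result for interferon response genes depended on the control. Of 49 tested, 27 were lower and 0 higher than set b (median -0.43), and 31 were lower and 1 higher than the empty vector (median -0.47). Against set a, 14 were higher and 8 lower (median 0.10), near the 25.5% and 15.5% of all named genes. IFIT1, which binds viral RNA, read 8.96 and 8.82 on the shEED arrays, 9.84 and 9.88 in set b, 10.06 and 10.06 with the empty vector and 8.78 and 8.66 in set a. The antiviral GTPase gene MX1 read 9.37 and 9.23, 10.06 and 10.04, 10.05 and 10.05, and 8.86 and 8.80 in the same order. For both the shEED arrays lay between set a and the other controls. The list was 0.44 higher in set b than in set a by median, and 7 falls held, all also called against the empty vector: IFITM2, ISG15, SAMD9, SAMD9L, PARP9, PARP12 and RTP4. SAMD9, a growth and antiviral factor, read 9.03 and 9.12 against 9.98 to 10.13 on the 6 controls (-1.05 ± 0.11, limma, adjusted p = 7.13e-05). RTP4 read 7.06 and 7.14 against 7.67 to 7.97 (-0.73 ± 0.09), and ISG15, a ubiquitin-like protein, 7.02 and 6.76 against 7.29 to 7.59 (-0.46 ± 0.13, adjusted p = 0.0343). The ISG15 call was lost without any array but shEED replicate 1 (-0.52 to -0.33). In these 3 genes the knockdown arrays were below every control array, as in 11.2% of all tested clusters. They were named from falls already called against these controls, so the separation is no added evidence. The list count against set b was 18 to 20 without any 1 array.

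The stretches before ISG15 (chr1:1013327-1013496, plus strand) and RTP4 (chr3:187368215-187368384, plus strand) are shown with the core of the interferon-stimulated response element, GAAANNGAA, in capitals on either strand, in 170 bases from RefSeq on GRCh38.p14; overlapping matches run together.
ISG15: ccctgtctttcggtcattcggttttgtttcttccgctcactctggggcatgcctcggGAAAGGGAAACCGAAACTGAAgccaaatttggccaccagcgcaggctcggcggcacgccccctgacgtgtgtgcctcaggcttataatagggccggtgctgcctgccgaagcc
RTP4: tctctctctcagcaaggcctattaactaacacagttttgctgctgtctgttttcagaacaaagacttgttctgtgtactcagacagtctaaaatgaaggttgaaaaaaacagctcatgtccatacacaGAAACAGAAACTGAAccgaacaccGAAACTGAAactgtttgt
The core was found in 27 of the 39 interferon genes with an entry, against 8.29% of all promoters.

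Cytokine and NF-kB target genes were likewise divided by control, with 13 of 33 lower and 1 higher than set b (9 to 12 and at most 1 without any 1 array), and 8 lower and 16 higher than set a. CCL2, a monocyte chemoattractant, was lowest in shEED under every control. It read 6.84 and 6.76 on the shEED arrays, 9.85 and 9.84 in set b, 7.81 and 8.03 in set a and 8.46 and 8.49 with the empty vector, so its fall ran from 1.11 (set a) to 3.04 (set b, 8.22-fold). Set b was 1.93 higher than set a. The neutrophil chemokine gene CXCL5 fell by 1.06 and 1.05 against sets b and a. IL6 rose by 0.55 ± 0.12 against set b and by 2.85 against set a, where it lay below log2 6; the call against set b was lost without set b replicate 2 or shEED replicate 1 (0.44 and 0.42). CXCL8 differed by -0.18 from set b and by 2.24 from set a. Of 16 antigen presentation genes, the class II genes HLA-DPA1 (0.88), HLA-DPB1 and HLA-DMB (0.71) rose and held. Without any 1 array 1 or 2 of these rises were called: HLA-DPB1 lost its call without each of the 4 (0.59 to 0.80), and HLA-DPA1 lost its own without set b replicate 1 or shEED replicate 2 (0.84 and 0.69). TAP2 fell and held, but was not called without any 1 array (-0.33 to -0.24) or against the empty vector.

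Genes known as Polycomb targets in cancer cells showed no excess of rises. Of 23 tested, 1 rose and 7 fell against set b (median -0.11), beside 7.8% and 9.49% of all named genes. Without any 1 array at most 1 rose and 3 to 5 fell. Against set a 4 rose and 6 fell, beside 25.5% and 15.5%. Of the 37 listed, 14 were not tested, and neither EED protein nor the histone mark was measured here. RASSF1 was the rise that held (7.93 and 7.81 in shEED against 6.96 to 7.45 on the 6 controls, 0.43 ± 0.10 against set b), a call lost without any array but shEED replicate 2 (0.36 to 0.43). The BMP receptor gene BMPR1B, PEBP1 and the protease inhibitor gene TIMP3 fell and held, of which BMPR1B was also called against the empty vector. BMPR1B means were below log2 6 in shEED and set b, and TIMP3 was not called against the empty vector (-0.04). CDKN2A, the cell cycle inhibitor locus that PRC2 silences in many cells, was bright on all 8 arrays (10.43 to 10.59) and differed by -0.07 ± 0.08. DKK1 was 0.84 lower than set b and 1.52 higher than set a. Of 12 HOX genes that could be tested, 1 rose and 1 fell against set b and neither held; 27 of the 39 listed were not tested. HOXC10 was 0.66 higher than set b and 0.20 higher than set a, the latter not called.

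Some of the largest differences from set b were not seen against set a. CHI3L1, a secreted chitinase-like protein, read 5.78 and 6.00 in shEED, 7.99 and 8.0 in set b, 6.21 and 5.95 in set a and 6.97 and 7.07 with the empty vector, a change of -2.10 against set b and -0.19 against set a. The glucose transporter gene SLC5A1 (-1.92 and 0.03), CEACAM1 (-1.60 and -0.26), the claudin gene CLDN8 (-1.37 and -0.21) and the chemokine gene CX3CL1 (-1.33 and 0.01) also differed by control. Among the rises, TMEM71 was 1.14 higher than set b, -0.31 against set a and 0.06 against the empty vector, and the autophagy protease gene ATG4C was 0.92 higher than set b and 0.19 higher than set a; without shEED replicate 1 the ATG4C call was lost (0.82). For TMEM71 the empty vector arrays (6.56 and 6.90) lay nearer to set a, and for CX3CL1 (10.36 and 10.22) nearer to set b.

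EZH2 knockdown in the same line, set against scrambled set a, allowed knockdowns of different PRC2 subunits to be compared. In shEZH2, EZH2 read 8.50 and 8.58 and EED 8.62 and 8.58, and in shEED EZH2 stayed 1.29 higher. The difference of the effects (shEED minus set b, less shEZH2 minus set a) was called in 1021 clusters, 317 (1.96%) higher and 704 (4.35%) lower. In shEZH2 itself 7.3% of tested clusters were higher than set a and 4.06% lower, the background for its shares. Of the 1218 clusters that fell in shEED, 278 also fell in shEZH2 (22.8% of the first list and 42.4% of the second) and 105 rose. Of the 1072 that rose, 274 also rose in shEZH2 (25.6% and 23.2%) and 22 fell.

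Calls of a difference depended on the controls for KRT4, MMP7, TRPC1 and ANPEP. With each knockdown against its own set none of these differences was called. KRT4 fell by 2.75 in shEED and 2.36 in shEZH2 (difference -0.39 ± 0.12, adjusted p = 0.0813), MMP7 fell by 2.17 and 2.32 (0.15 ± 0.19), TRPC1 rose by 1.52 and 1.59 (-0.07 ± 0.19) and ANPEP rose by 1.26 and 1.29 (-0.03 ± 0.14). Set directly against shEZH2, shEED differed by -0.69 for KRT4 and 0.85 for TRPC1 (limma, adjusted p = 0.000117 and 0.000655). With the sets exchanged all 4 were called, KRT4 at -1.0, MMP7 at -0.64, TRPC1 at 1.77 and ANPEP at 0.57. ALDH1A1 fell in both and more in shEED (-2.89 and -1.25, difference -1.64 ± 0.11, limma, adjusted p = 7.36e-06), as did VGLL1 (-3.05 and -0.47). KIT and HEY2 went opposite ways. KIT read 4.4 and 4.75 in shEZH2, under log2 6, and rose by 1.36 in shEED and fell by 1.74 in shEZH2 (difference 3.11 ± 0.18, limma, adjusted p = 3.5e-06). HEY2 read 5.48 and 5.30 in shEZH2 and 8.47 and 8.33 in shEED (difference 2.95 ± 0.16, limma, adjusted p = 2.32e-06).

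Gene lists differed as well. Of the 49 interferon genes, 41 were higher in shEZH2 than in set a, and 39 of the differences of effect were called lower in shEED. The count rested on the controls: 36 were lower directly, and 19 were lower and 7 higher with the sets exchanged. For MX1 the difference was -2.24 with each knockdown against its own set, -1.02 between the knockdowns directly and 0.20 with the sets exchanged. For RTP4 it was -1.87, -1.75 and -1.63. Of the 35 mitosis genes 3 differences were called, all higher in shEED, which became 15 higher directly and 13 higher and 1 lower with the sets exchanged. Among the 11 metallothionein and zinc genes 5 were also higher in shEZH2 than in set a, such as MT1M (1.39), MT1E (1.10) and MT2A (0.60). In this list 4 differences of effect were called, all higher in shEED, which became 8 directly and 10 with the sets exchanged. For MT1E and MT2A the difference was not called (0.30 and -0.16). Of the 23 cholesterol genes 6 fell in shEZH2 and 12 differences were called, all lower in shEED. The direction of the list turned with the controls: 7 were lower and 3 higher directly, and 2 lower and 8 higher with the sets exchanged. HMGCS1 gave -1.12, -0.23 and 0.65, LSS -0.81, 0.10 and 1.00, and MSMO1 -1.16, -0.97 and -0.77, with each knockdown against its own set, directly and with the sets exchanged. STC2 and ALG14, which rose in shEED, were lower in shEZH2 than in set a by 0.39 and 0.26, the second not called (adjusted p = 0.0965), and both differences of effect were called (1.83 and 1.59).

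**Figure D5:**
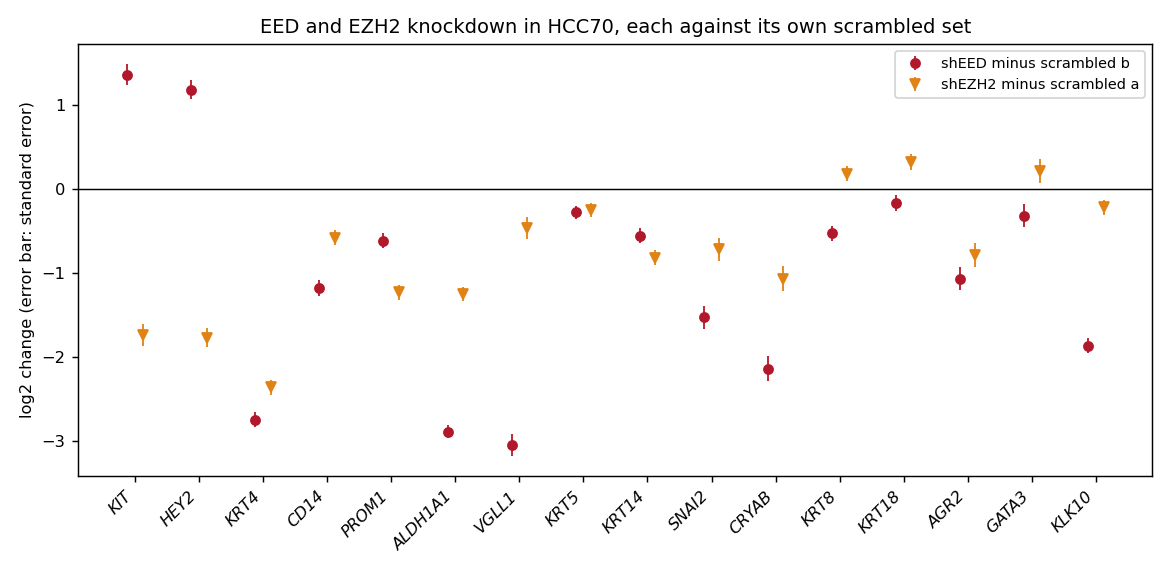
Log2 change with its standard error (vertical axis) of 16 lineage and related genes (horizontal axis) for shEED minus scrambled b (circles) and shEZH2 minus scrambled a (triangles). KIT and HEY2 lie on opposite sides of 0, KRT4 lies below -2 in both, and VGLL1 and KLK10 lie far lower in shEED.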

How the data were processed

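RNA of HCC70 and MDA-MB-468 cells was hybridised to Affymetrix gene arrays. The values are the log2 RMA signals that the authors deposited, 1 per transcript cluster (33297 clusters, 16 arrays). They were made with Affymetrix Expression Console and RMA, per the submitters' processing notes; for both tools the version, and the genome build, was not given in the sources used here. The precision is limited by 2 arrays per group. Clusters with at least 2 arrays at log2 6 (16175) were fitted with limma 3.58.1 in R 4.3.3 as 8 group means (lmFit and eBayes, 8 residual degrees of freedom), with the Benjamini-Hochberg adjustment over all 16175. The fit was tested on simulated data. Genes were named from clusters with exactly 1 symbol in the platform annotation (11712 tested clusters, 11145 genes). The rule named the 15 rises and 15 falls that held with the largest smaller change against sets b and a, the 5 largest in each direction called against set b that were not called against set a or were called the other way, and members of 35 gene lists. The members and lists were chosen with earlier results of these data known. The empty vector control was added after seeing the data. Promoter windows came from RefSeq (GRCh38.p14).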

Additional observations from a re-analysis of the deposited data

Results flagged for a closer look

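In 5 genes the effects of EED knockdown (against set b) and EZH2 knockdown (against set a) had opposite signs, with the largest differences of effect among genes where the difference was called under each of 3 assignments of controls. The test is the interaction contrast of limma with Benjamini-Hochberg adjustment, and 65 genes met the same condition. All 3 assignments use the same shEED and shEZH2 arrays, and the direct one is the mean of the others, so they are not separate checks. The genes were picked by these same values, so their adjusted p-values are descriptive. CCL2 differed by -4.74 ± 0.20 (adjusted p = 6.09e-07), by -2.81 when shEED was set directly against shEZH2 and by -0.89 with the control sets exchanged. KIT differed by 3.11 ± 0.18 (adjusted p = 3.5e-06), and by 3.89 and 4.67 under the other assignments. HEY2 differed by 2.95 ± 0.16 (adjusted p = 2.32e-06), and by 3.01 and 3.07. IFIT1 differed by -2.85 ± 0.19 (adjusted p = 7.36e-06), and by -1.71 and -0.57. PLXDC2 differed by -2.60, with a change of -0.58 in shEED and 2.02 in shEZH2. The sizes for KIT and HEY2 depended less on the controls than those for CCL2 and IFIT1. Against set a for both knockdowns, IFIT1 did not have opposite signs (0.17 in shEED, not called, and 1.87 in shEZH2). CCL2 read 9.70 and 9.54 in shEZH2, below set b (9.85 and 9.84), so against set b it was lower in both. The fall of PLXDC2 in shEED did not hold. KIT and HEY2 were above both scrambled sets in shEED and below both in shEZH2.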

How the results depend on the processing

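The fall of EED was called under every alternative run, from -1.21 (set a) to -0.80. The 2290 calls became 5940 with set a in place of set b, 4465 with both scrambled sets and 4439 with only the 4 arrays fitted, and 1013 to 1128 without 1 array. The share of rises was 46.8%, and 62.0%, 61.2% and 63.8% with set a, both sets and the empty vector. The 1558 changes that held became 1004 with the empty vector added and 729 to 1217 without 1 array. The 1021 differences from EZH2 knockdown became 5169 for shEED directly against shEZH2, 6843 with the sets exchanged, 677 with each array centred on its median and 461 to 1522 without 1 array. Turns of sign are listed for named genes called in the main run, the alternative run or both. Turns where neither run gave a call are left out. With set a the sign turned for TMEM71 (-0.31), DDIT4 (-0.73), SLC5A1 (0.03), CX3CL1 (0.01), LCOR (0.61), FDPS (0.21), SCD (0.07), LPIN1 (1.17), CHAC1 (-0.38), PROM1 (0.27), ALDH1A3 (0.56), VIM (0.84), IFIT1 (0.17), IFIT3 (0.01), MX1 (0.47), CXCL8 (2.24) and DKK1 (1.52). With both sets it turned for LCOR (0.30), LPIN1 (0.21), ALDH1A3 (0.08), VIM (0.14), CXCL8 (1.03) and DKK1 (0.34), and with the empty vector for PROM1 (0.10). The cause was not tested. Same-numbered arrays of shEED and set b did not deviate together (r = -0.00199), so the numbers gave no sign of pairing between these groups. For shEED r was 0.0748 with set a and 0.23 with the empty vector. With the replicate block there were 2483 calls, 1691 held and 1133 differences from EZH2 knockdown, and EED changed by -0.82 (adjusted p = 0.000661). Means below log2 6 limit the size of change that can be read for dim genes.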

Other observations

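WNT and BMP pathway genes changed in both directions, with 5 of 40 higher and 9 lower than set b (0 to 3 and 6 or 7 without any 1 array) and 15 higher and 11 lower than set a. The ligand gene WNT5A read 5.80 and 5.93 on the shEED arrays, 6.77 and 6.56 in set b, 6.73 and 6.58 in set a and 6.45 and 6.41 with the empty vector, and fell by 0.80 ± 0.13 (limma, adjusted p = 0.00129). The knockdown arrays lay below log2 6 and below all 6 controls, the latter as in 11.2% of all tested clusters. The BMP antagonist gene NOG (0.81 ± 0.18) and the inhibitory SMAD7 (0.63 ± 0.14) rose and held. NOG lost its call without set b replicate 1 or 2 or shEED replicate 2 (0.75 to 0.83), and SMAD7 without set b replicate 1 or 2 or shEED replicate 1 (0.53 to 0.64).

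Of 16 aldehyde dehydrogenase genes 3 rose and 6 fell against set b, or 1 and 4 or 5 without any 1 array. ALDH1L2, a mitochondrial folate enzyme, read 8.53 on both shEED arrays against 7.10 to 7.78 on the 6 controls, a rise of 0.86 ± 0.14 (limma, adjusted p = 0.00159), opposite to ALDH1A1. Of 15 matrix protease and inhibitor genes 8 fell and 1 rose against set b, and 6 were lower and 6 higher than set a; SERPINE2, a serine protease inhibitor, was the rise (0.94) and held, and the plasminogen activator gene PLAT fell by 1.72 against set b and by 0.52 against set a. Of 18 YAP target and TEAD genes 6 fell and 1 rose against set b (median -0.08), or 4 or 5 and 0 without any 1 array, while 3 were lower and 9 higher than set a (median 0.38). VGLL1, VGLL3 (-0.84) and TEAD3 (-0.31) were the falls that held. TEAD3 lost its call without any 1 of the 4 arrays (-0.33 to -0.28) and against the empty vector (-0.22, adjusted p = 0.0661).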
